A study of Mus musculus with 10 samples.

Results

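Cell lines grown out of lung metastases of a mouse mammary carcinoma were compared with lines grown out of fat pad tumours of the same carcinoma. The comparison takes 6 of the 10 lines with RNA sequencing in the series, picked by their labels: 3 metastasis lines, numbered 5, 3 and 7, and 3 primary lines, numbered 5, 7 and 8. All descend from 4T1-hHER2, a line of BALB/cfC3H mammary origin that a lentivirus made to express human HER2, the ERBB2 receptor, together with luciferase. The derived lines were grown from NOD-SCID-GAMMA (NSG) mice, which lack T, B and natural killer cells, and their descriptions trace both the fat pad and the lung lines to circulating tumour cells (CTC) of mice with 4T1-hHER2 tumours. Each line was sequenced once, and the labels name no treatment, age or passage. The parental line (n = 1) and 3 lines of circulating cells (CTC 1, 3 and 6) entered the same model and are given where they place a difference. Nothing in the labels says whether lines of a group came from separate mice, so p-values measure the spread between these lines.

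Metastasis requires tumour cells to leave the primary site, survive in blood and grow in a distant organ. Cells of a lung colony have passed these steps. By their descriptions the fat pad lines also trace to circulating cells. Leaving a tumour and passing through blood are thus not particular to the lung lines. 4T1 is widely used because it spreads to lung from the mammary fat pad without help. Programmes often examined in such comparisons are the cell cycle, the contacts that hold epithelial cells together, the extracellular matrix and its receptors, growth factor signalling and energy metabolism.

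The 6 libraries held 85158193 to 97722716 estimated counts, of which 19.7% to 22.5% fell on assembled transcripts tied to no gene. Levels below are CPM, the counts of a named gene scaled to a common library size by trimmed means (TMM). Ptprc, the pan-leukocyte gene, stayed at or below 0.0976 CPM in the 6 lines, and 10 of 13 neutrophil and lymphocyte markers were at 0 in all of them. NSG mice lack lymphocytes, so absent lymphocyte markers cannot show whether host RNA is present. Macrophage markers summed to 12.6 to 19.1 CPM in primary and 9.42 to 30.6 CPM in metastasis lines. Endothelial markers summed to 145 to 192 CPM and 145 to 338 CPM, so both sums overlapped. Lung epithelial markers summed to 63.5 to 129 CPM in primary and 74.4 to 111 CPM in metastasis lines, with 6 of 12 at 0 in all 6. Of the 5 of these markers that were tested, 2 were higher and 3 lower in metastasis lines. Their median log2 change was -0.28 (-0.48 to 0.98 as each line was left out), and the lowest was -5.18. The groups of the 2 higher ones did not overlap (6.38% over all genes on that side), and those of the 3 lower ones did. Napsa, a protease of alveolar cells, was at 0.502, 0.329 and 0.247 CPM against 3.14, 1.31 and 1.3 CPM, and DESeq2 called it. Ager, a receptor of alveolar cells, was at 0.426 to 0.92 CPM against 0.969 to 1.92 CPM. Whether RNA of host cells, from lung or elsewhere, has a part in any difference was not tested. Mouse Erbb2 was at 52.3, 51.6 and 33.4 CPM in primary 5, 7 and 8 and at 60.3, 42.6 and 49.1 CPM in metastasis 5, 3 and 7, and these values overlapped. The human HER2 insert was not analysed here.

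Between metastasis and primary lines, 0 of 19936 tested genes (0%) had an adjusted p under 0.05 in edgeR's quasi-likelihood test, with p adjusted over all of them by Benjamini-Hochberg. At an unadjusted p under 0.05 there were 1652 genes, 8.29% of those tested: 672 higher (3.37%) and 980 lower (4.92%) in metastasis lines. The 3 metastasis lines all lay above the 3 primary lines for 1271 genes (6.38%) and all below for 1449 (7.27%). The median log2 change over all genes was 0.01, with 10029 genes above 0 (50.3%) and 9873 below (49.5%). DESeq2, run on the same counts, called 187 of the 19936 genes, 65 of them higher. Single lines moved the number at an unadjusted p under 0.05: leaving out primary 5 gave 2900, and leaving out primary 7, primary 8 or metastasis 5 gave 946, 935 or 853. Because no gene passed, all differences below are given as values, and a gene that is called higher or lower is so on its point estimate.

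The smallest p belonged to Pelo (ENSMUSG00000042275, chr13:115088355-115090186, minus strand, GRCm38), whose product pelota splits ribosomes that stall on damaged messages. Pelo was at 6.68, 7.92 and 9.2 CPM in primary 5, 7 and 8 and at 0.794, 0.629 and 0.573 CPM in metastasis 5, 3 and 7. Every metastasis line lay far below every primary line, and the CTC lines (7.79, 10.2 and 8.11 CPM) and the parental line (10.2 CPM) were on the primary side. Its log2 change of -3.57 (SE 0.35) had the adjusted p 0.053 in edgeR. With a filter at a mean log2 CPM of 1, which leaves fewer genes, that adjusted p was 0.0234, and limma-voom with a random block for the line number gave 0.00969. Set against the CTC lines, which makes use of the same metastasis lines, the log2 change was -3.71 (SE 0.35). Of the 31-base words of Pelo transcripts, 43.4% also occur in Gm49395, a gene annotated on the same strand over it. Gm49395 was at 0.165 to 1.58 CPM in primary and 0.0136 to 0.838 CPM in metastasis lines. Of the 17 tested genes listed for ribosome rescue and no-go decay, Pelo included, 6 were higher and 11 lower, with a median log2 change of -0.07 that ranged from -0.25 to 0.08 as each line was left out. These counts take in Ski (log2 change 0.76, SE 0.24), the SKI proto-oncogene, which was listed by its symbol and is not a gene of this pathway. Abce1, the ATPase that splits ribosomes with pelota, was at 429, 199 and 392 CPM in primary and 301, 229 and 607 CPM in metastasis lines, so its groups overlapped.

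**Figure D1:**
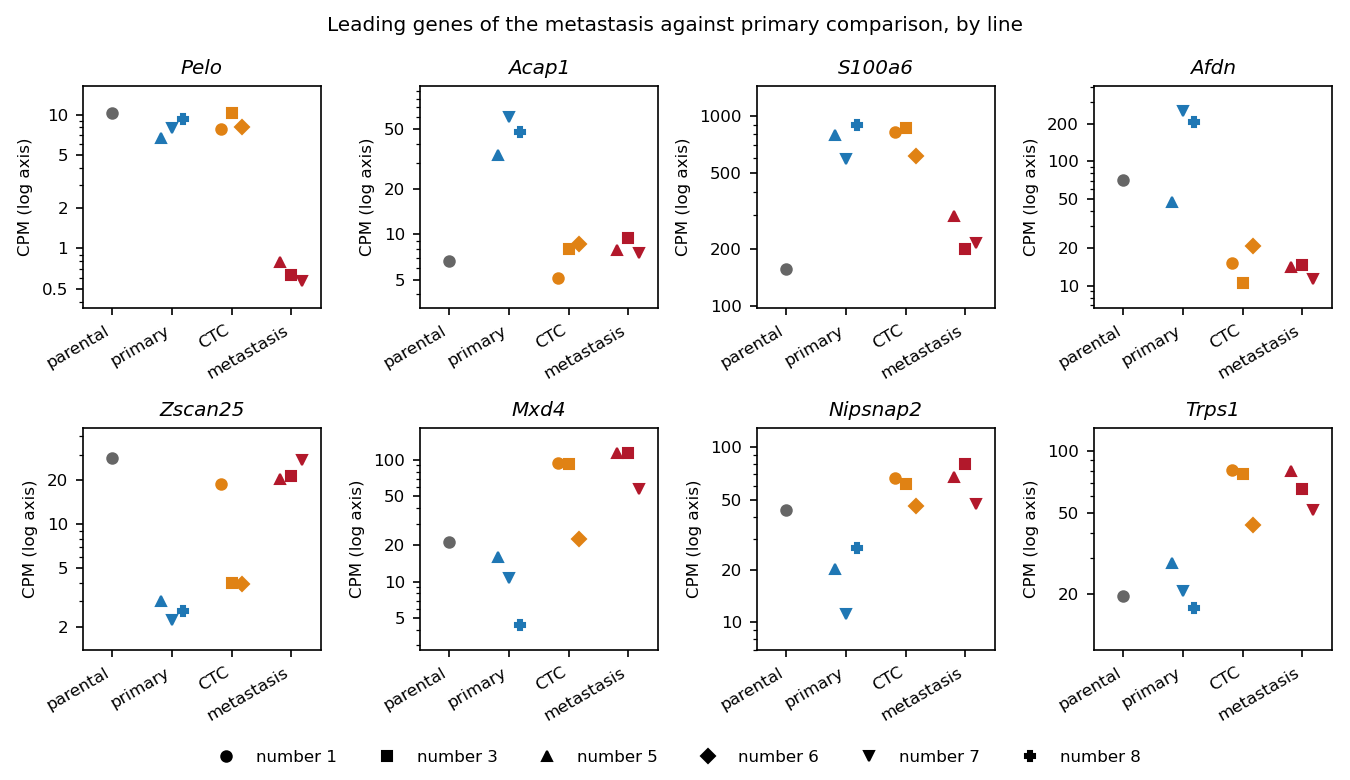
CPM (log axis) of 8 genes in the 10 lines, 1 point per line, with shapes for the number in the line's title and colours for the group. Pelo, Acap1, S100a6 and Afdn are lower in all 3 metastasis lines than in all 3 primary lines, and Zscan25, Mxd4, Nipsnap2 and Trps1 are higher; the CTC lines lie with the primary lines for Pelo and S100a6 and with the metastasis lines for Acap1 and Afdn.

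Acap1, a GTPase-activating protein for ARF6 in endosomal recycling, was at 33.7, 60.6 and 47.6 CPM in primary and at 7.86, 9.4 and 7.48 CPM in metastasis lines. Its log2 change of -2.52 (SE 0.34) had the adjusted p 0.36 in edgeR and 0.0453 in limma-voom with that block. The CTC and parental lines were at 5.17 to 8.66 CPM, so here the primary lines are the ones that stand apart. S100a6, calcyclin of the S100 calcium-binding family, was at 795, 596 and 897 CPM in primary and at 299, 199 and 216 CPM in metastasis lines, a log2 change of -1.68 (SE 0.27). Its CTC lines stayed at 613 to 867 CPM, while the parental line was at 156 CPM, below every other line. Afdn encodes afadin, which ties nectins to actin at adherens junctions. It was at 46.9, 253 and 209 CPM in primary and at 14.1, 14.7 and 11.3 CPM in metastasis lines (log2 change -3.67, SE 0.59). Primary 5 was the lowest primary line, and without it Afdn passed in edgeR (adjusted p 0.043).

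The remaining genes with the smallest p among those lower in metastasis lines came from several functions. Kifc5b, a kinesin that shares 51.6% of its 31-base words with other genes, chiefly its near copy Kifc1, was at 29.5 to 41.1 CPM in primary and 6.62 to 10 CPM in metastasis lines, and its reads cannot be told apart from those of Kifc1 with certainty. Slc40a1, the iron exporter ferroportin, was at 6.72, 5.38 and 11.7 CPM against 1.72, 0.694 and 1.28 CPM. Tspan12, a tetraspanin of Frizzled signalling, was at 5.26, 19.8 and 6.06 CPM against 0.729, 1.05 and 1.77 CPM. Keratin 80 (Krt80), an epithelial filament protein, had 28, 111 and 125 CPM in primary against 9.65, 14.1 and 16.8 CPM in metastasis lines. None of these groups overlapped. The others were Hecw2, a ubiquitin ligase (log2 change -1.89, SE 0.35), Pls1, an actin bundler (-1.84, SE 0.36), Cep170, a centrosome protein (-1.51, SE 0.31), and Platr16, a long non-coding RNA (-1.33, SE 0.25). Platr16 shares 45.1% of its 31-base words with other genes, chiefly Gm13230, which overlaps it.

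Among genes higher in metastasis lines, Zscan25, a zinc finger gene, was at 2.98, 2.21 and 2.56 CPM in primary and at 20.5, 21.4 and 27.6 CPM in metastasis lines. Its log2 change of 3.16 (SE 0.64) had the adjusted p 0.594 in edgeR. CTC 1 (19 CPM) and the parental line (28.5 CPM) were at the metastasis level, and CTC 3 and CTC 6 (3.96 and 3.92 CPM) near the primary level, so the gene splits the CTC lines. Mxd4 pairs with MAX and opposes MYC at its target genes. It was at 15.9, 10.8 and 4.38 CPM in primary and at 113, 114 and 57.1 CPM in metastasis lines (log2 change 3.19, SE 0.66). Of 20 tested MYC and growth regulators, 5 were higher and 15 lower, with a median log2 change of -0.34 (-0.11 without metastasis 5 and -0.65 without metastasis 3). The 5 were Mxd1, Mxd3, Mxd4, Mxi1 and Mnt, all MAX partners that oppose MYC, named here after their values were seen, and apart from Mxd4 their groups overlapped. Trps1, a GATA-type repressor of the mammary luminal lineage, was at 28.4, 20.8 and 17.1 CPM against 79.7, 65.5 and 51.8 CPM (log2 change 1.57, SE 0.33). Nipsnap2, a mitochondrial protein, was at 20.2, 11.1 and 26.7 CPM against 67.3, 80.6 and 47.7 CPM (log2 change 1.76, SE 0.37). For Trps1 and Nipsnap2 the 3 CTC lines also lay above the 3 primary lines. Tpt1, a growth-related protein, was at 2475, 1804 and 2640 CPM against 4049, 4680 and 3612 CPM, with 19.9% of its 31-base words shared with pseudogene copies. Cpq, a secreted carboxypeptidase, had a log2 change of 2.79 (SE 0.63), Chmp1b, an ESCRT-III subunit, 0.95 (SE 0.22), and Scaf11, a splicing factor, 1.20 (SE 0.29). The remaining 4 of these 12 genes are mitochondrial tRNAs, described with the mitochondrial genome.

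Among genes with a mean log2 CPM of at least 1 and an unadjusted p under 0.05, several of the largest changes were uneven among the lines. Adam12, a membrane metalloprotease, was at 6.18, 91.9 and 96.6 CPM in primary and at 0.039, 0.21 and 1.02 CPM in metastasis lines, a log2 change of -7.26 (SE 1.91). The groups did not overlap, but primary 5 was far below the other 2 primary lines. Wnt7a (3.3, 69.3 and 32.4 CPM against 0.156, 0.223 and 3.83 CPM), Dynap (3.16, 41.4 and 34.5 CPM against 0.143, 0.183 and 2.86 CPM) and B4galnt3, a glycosyltransferase (3.88, 52.3 and 10.7 CPM against 1.21, 0.484 and 2.11 CPM), were also lowest in primary 5 among the primary lines. In Wnt7a, metastasis 7 exceeded primary 5. On the higher side, Slc45a4, a solute carrier, was at 7.11, 0.539 and 0.0825 CPM against 53.2, 15.9 and 21.2 CPM. Lgals7, galectin-7 of stratified epithelia, was at 0.577 to 1.32 CPM against 3.68 to 19.3 CPM. For Rcan2, a calcineurin regulator, metastasis 7 (1.76 CPM) fell below primary 5 (5.4 CPM), and for Synpo, an actin-associated protein, 1 line decided the estimate. Synpo reached 93.6 CPM in metastasis 5, and its log2 change of 3.43 (SE 1.30) became 1.21 without that line.

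The cell cycle lists had lower levels in metastasis lines. Passage through the cell cycle is driven by waves of transcription, with E2F factors acting on genes of DNA replication and the DREAM complex, B-MYB and FOXM1 acting on genes of mitosis. Many mitotic promoters carry a cell cycle homology region (CHR) and CCAAT boxes, and many replication promoters carry E2F sites. Promoters of 4 mitotic genes follow, shown because these genes had lower levels in metastasis lines together. Each is the 250 bases before the RefSeq start (GRCm38.p6), with CHR (TTTGAA) and CCAAT matches on either strand in capitals. They are topoisomerase Top2a (chr11:99024190-99024439, minus strand), the spindle kinase gene Aurka (chr2:172370571-172370820, minus strand), the proliferation marker Mki67 (chr7:135716380-135716629, minus strand) and the mitotic kinase gene Plk1 (chr7:122159185-122159434, plus strand), the last added after its values were seen.
Top2a: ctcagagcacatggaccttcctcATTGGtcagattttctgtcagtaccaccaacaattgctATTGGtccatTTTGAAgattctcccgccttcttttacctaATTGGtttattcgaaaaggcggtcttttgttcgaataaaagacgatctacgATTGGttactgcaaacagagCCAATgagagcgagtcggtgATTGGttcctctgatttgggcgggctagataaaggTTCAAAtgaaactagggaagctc
Aurka: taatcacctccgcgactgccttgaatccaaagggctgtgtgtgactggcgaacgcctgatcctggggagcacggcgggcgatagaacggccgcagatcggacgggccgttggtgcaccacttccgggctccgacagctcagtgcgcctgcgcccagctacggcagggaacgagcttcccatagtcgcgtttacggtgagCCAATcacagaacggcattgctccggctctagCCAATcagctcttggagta
Mki67: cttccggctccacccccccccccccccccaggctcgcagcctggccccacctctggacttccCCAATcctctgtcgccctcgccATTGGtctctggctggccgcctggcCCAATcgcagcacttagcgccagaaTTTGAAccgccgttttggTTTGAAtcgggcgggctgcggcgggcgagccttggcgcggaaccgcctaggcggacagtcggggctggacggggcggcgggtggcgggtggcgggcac
Plk1: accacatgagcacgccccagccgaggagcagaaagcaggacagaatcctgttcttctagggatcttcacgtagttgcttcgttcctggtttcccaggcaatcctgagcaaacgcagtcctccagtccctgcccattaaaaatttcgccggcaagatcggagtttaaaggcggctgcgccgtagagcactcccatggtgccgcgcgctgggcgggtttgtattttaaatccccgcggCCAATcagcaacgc

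CHR matches were found in 10 of the 32 promoters of tested G2/M genes present in the table (31.2%), against 11.2% of 12006 promoters of genes tested and 16.3% of all 27025 promoters. CCAAT matches were found in 24 of 32 (75%), against 36.3% of tested genes and 34.5% of all promoters. Among 30 promoters of G1/S genes, 18 held a CCAAT match (60%) and 4 a CHR match (13.3%), so CCAAT was frequent in both lists. An E2F match was in 5 of the 30 (TTTGGCGC or TTTCGCGC, 16.7%), against 1 of 32 for G2/M (3.12%), 1.17% of tested genes and 0.673% of all promoters. These shares describe letters in a window and were not tested.

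All 38 genes of the G2/M and mitosis list had a lower mean level in metastasis lines, with a median log2 change of -1.14 against 0.01 over all genes. Of the 38, 20 had an unadjusted p under 0.05 (4.92% over all genes), and for 21 all 3 metastasis lines lay below all 3 primary lines (7.27% over all genes). The list's mean log2 CPM was 6.74, 7.13 and 6.47 in primary 5, 7 and 8 and 4.65, 6.36 and 5.29 in metastasis 5, 3 and 7. Metastasis 3 was the closest to the lowest primary line and metastasis 5 was the lowest line of all 10. CTC 1 and CTC 3 (6.93 and 6.82) lay among the primary lines, CTC 6 (6.20) lay just below metastasis 3, and the parental line was at 5.44, between metastasis 7 and metastasis 3. The median was -1.74 without metastasis 3 and -0.83 without metastasis 5. The count of genes whose groups did not overlap was 38 of 38 without metastasis 3. With a line left out, groups overlap less often in any gene. The 7.27% therefore does not apply to that count, and no share over all genes was computed for it. The number at an unadjusted p under 0.05 ranged from 7 without primary 7 to 35 without metastasis 3. Over all genes, in either direction, these settings gave 946 and 1304. A smaller share of dividing cells and less of these messages per dividing cell cannot be told apart in bulk RNA.

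Individual members followed the list. Aurka was at 131, 152 and 164 CPM in primary and at 26.5, 67.8 and 69.2 CPM in metastasis lines, a log2 change of -1.45 (SE 0.35) with the adjusted p 0.594 in edgeR. Prc1, which bundles microtubules of the central spindle, was at 233, 311 and 285 CPM against 38, 128 and 109 CPM (-1.59, SE 0.41). Plk1 was at 122, 173 and 95 CPM against 24.9, 66.3 and 53.8 CPM (-1.43, SE 0.38). These are the 3 of 38 members that DESeq2 called. Its calls over all 19936 genes are given above. Ccnb1, cyclin B1 of the mitotic kinase, was at 158, 246 and 174 CPM against 49.4, 134 and 82.6 CPM (-1.12, SE 0.37). It shares 27.7% of its 31-base words with other genes, chiefly a pseudogene. Top2a, which untangles replicated DNA, was at 363, 414 and 331 CPM against 73.2, 248 and 78.4 CPM (-1.47, SE 0.55). Anln, the anillin of the cytokinetic ring, was at 394, 470 and 493 CPM against 116, 222 and 256 CPM (-1.19, SE 0.32). For Mki67, metastasis 3 (289 CPM) exceeded primary 8 (235 CPM), and the other lines were at 404 and 386 CPM in primary 5 and 7 and at 56.7 and 107 CPM in metastasis 5 and 7.

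Genes of the G1/S transition and DNA replication had the same direction with a smaller difference: 37 of 37 lower, with a median of -0.93. Of these, 9 had an unadjusted p under 0.05 (4.92% over all genes) and 11 had groups that did not overlap (7.27% over all genes), and the median was -0.54 without metastasis 5. Their mean log2 CPM was 5.83, 6.54 and 6.02 in primary and 4.19, 5.87 and 5.23 in metastasis lines, so metastasis 3 exceeded primary 5. Rrm1, the large subunit of ribonucleotide reductase, was at 208, 364 and 374 CPM against 56.4, 169 and 176 CPM (log2 change -1.24, SE 0.43). Pola1, the catalytic subunit of the DNA polymerase that makes primers, was at 60.5, 120 and 99.7 CPM against 15.3, 46.6 and 47.3 CPM (-1.36, SE 0.44). Rfc4, of the clamp loader, had a log2 change of -1.06 (SE 0.33), and Pcna, the clamp, one of -0.43 (SE 0.36) with overlapping groups. With the number as a fixed block in the 6 lines, 28 of 37 members of this list had an unadjusted p under 0.05. For G2/M it was 38 of 38, and over all genes 1334 in either direction, against 1652 of 19936 in the main test. That fit has few residual degrees of freedom, and no gene passed. Metastasis 3 and primary 8 have no line of their number in the other group. Here and below, the difference in such a fit therefore comes from the lines numbered 5 and 7, without metastasis 3 and primary 8. Replication-dependent histones, which package new DNA in S phase, were lower in 22 of 23 tested, with a median of -1.61. Of these, 15 had an unadjusted p under 0.05 (4.92% over all genes) and 14 had groups that did not overlap (7.27% over all genes). Most of these genes were barely detected, and 2 of the better detected ones did not separate the groups. Hist1h1c, a linker histone, was at 25.5, 13.4 and 38.4 CPM against 28.8, 47.9 and 12.2 CPM (log2 change 0.20, SE 0.65), and Hist1h2bc had a log2 change of -0.53 (SE 0.56). Both overlapped, as did the sum of the list, 31.7 to 72.5 CPM against 18.4 to 66 CPM. With a minimum mean log2 CPM of 1 only 3 members were left, with a median of -0.50. Among the low ones, Hist2h3c2 was at 1.44, 1.38 and 2.23 CPM against 0.143, 0.576 and 0.136 CPM, and Hist4h4 at 0.669, 0.263 and 0.522 CPM against 0.104, 0.0786 and 0.0682 CPM. Hist2h3c2 shares 64.2% of its 31-base words with other genes. Messages of these histones lack a poly-A tail, and the molecule label and the library kit in the labels differ on whether poly-A RNA was taken. Other transcripts without a poly-A tail were higher in 6 of 8 in metastasis lines, with a median of 0.28 (0.08 without metastasis 5) and no gene whose groups did not overlap, and their part in the histone difference was not tested.

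Inhibitors of the cycle did not mirror this. Of the p53 targets and Cdk inhibitors, 7 of 19 were higher, with a median of -0.11 (-0.27 to -0.06 as each line was left out). Cdkn1a, the p21 inhibitor, was at 19.7, 13.8 and 28.8 CPM in primary and at 8.8, 11.5 and 7.33 CPM in metastasis lines (log2 change -1.17, SE 0.47), so it was lower too. Gadd45g, a stress gene, was at 10, 22.2 and 110 CPM against 3.75, 7.52 and 3.68 CPM. Cdkn1b, the p27 inhibitor, was at 105 to 251 CPM against 144 to 298 CPM, which overlap.

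**Figure D2:**
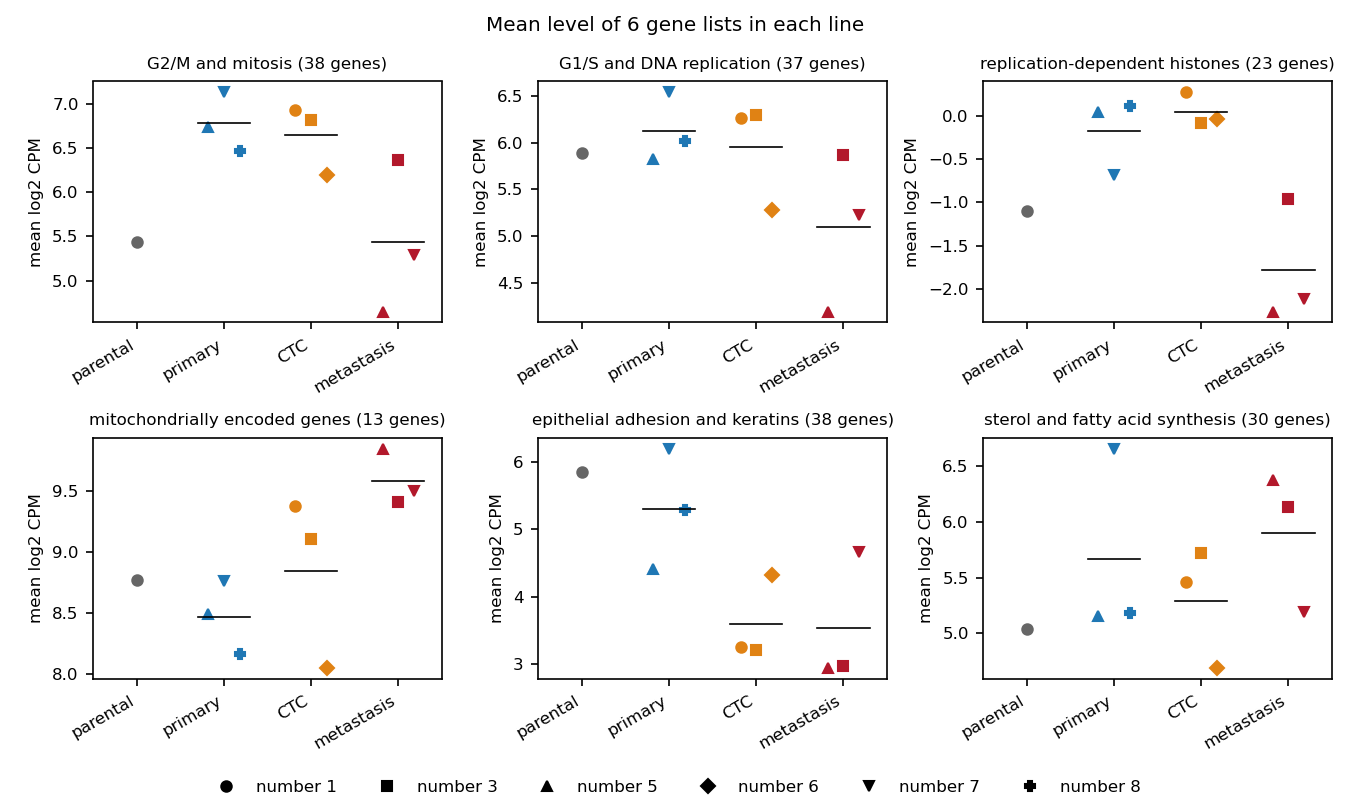
Mean log2 CPM of 6 gene lists in each line, with a bar at the mean of each group of 3. G2/M genes lie lower in the metastasis lines (4.65 to 6.36) than in the primary lines (6.47 to 7.13), mitochondrially encoded genes lie higher (9.41 to 9.85 against 8.16 to 8.76), and the epithelial and sterol lists overlap between the groups.

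Mitochondrially encoded genes had higher levels in metastasis lines. The mitochondrial genome encodes 13 subunits of the respiratory chain and ATP synthase, with its rRNAs and tRNAs, and both its strands are transcribed as long precursors. All 13 protein genes had a higher mean in metastasis lines, with a median log2 change of 0.86, 11 at an unadjusted p under 0.05 (3.37% over all genes) and 12 whose groups did not overlap (6.38% over all genes). As a share of named counts, mitochondrial genes took 2.34% to 3.14% in metastasis and 1.14% to 1.67% in primary lines. mt-Co1, a cytochrome oxidase subunit, was at 4720, 5123 and 4334 CPM in primary and at 9211, 6382 and 7758 CPM in metastasis lines, a log2 change of 0.72 (SE 0.26). mt-Cytb, the cytochrome of complex III, was at 1925, 1860 and 1278 CPM against 3820, 3059 and 2971 CPM (0.96, SE 0.33). mt-Atp6 was at 82.5, 133 and 119 CPM against 283, 195 and 223 CPM (1.07, SE 0.29). Of the 31-base words of mt-Atp6, 99.5% occur in other annotated genes, and of those of mt-Co1, 63.9%, so the levels of both are uncertain. The members at an unadjusted p under 0.05 were 4 without primary 8, 4 without metastasis 5 and 7 with the number as a fixed block, with all 13 still higher. Over all genes, in either direction, there were 935 without primary 8 and 853 without metastasis 5. The fixed block gave 1334 in 6 and 1460 in 9 libraries. The CTC lines spanned 8.05 to 9.38 in mean log2 CPM of these genes, from below the primary to near the metastasis lines (9.41 to 9.85).

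The few genes on the minus strand of the mitochondrial genome were singled out after their values were seen. The 1 protein gene there, mt-Nd6, was at 0.0279, 0.132 and 0.0275 CPM in primary and at 1.25, 1.2 and 1.9 CPM in metastasis lines, a log2 change of 4.50 (SE 1.28). The neighbouring tRNA genes for alanine, asparagine and cysteine (mt-Ta at chrM:5018-5086, mt-Tn at chrM:5089-5159 and mt-Tc at chrM:5192-5257) had log2 changes of 2.22 (SE 0.53), 2.24 (SE 0.55) and 2.24 (SE 0.53). mt-Tc was at 2.91, 1.75 and 1.55 CPM in primary and at 17.5, 6.89 and 5.02 CPM in metastasis lines. The proline tRNA, mt-Tp, was at 41, 24.2 and 29.7 CPM against 119, 63.3 and 71 CPM (1.42, SE 0.34). All 6 tested minus-strand tRNA genes had groups that did not overlap (6.38% over all genes on the higher side), with a median of 2.20. On the plus strand it was 5 of 11, with a median of 1.18. The strands overlapped in size: mt-Tt on the plus strand had a log2 change of 2.04 and mt-Te on the minus strand one of 1.18. The sources used here do not say whether counting used strand, so reads of the opposite precursor could be counted in these genes. Nuclear genes of oxidative phosphorylation had no common direction that held: 26 of 32 were lower, with a median of -0.24, but only 15 of 32 in pair 5 and 16 of 32 in pair 7 (medians 0.02 and -0.01). The median was -0.06 without primary 8 and 0.04 with the number as a fixed block. Sdhb, the iron-sulphur subunit of complex II, was at 105, 127 and 161 CPM against 86.2, 76.8 and 75 CPM (-0.72, SE 0.25).

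Genes of epithelial junctions and keratins had lower means in 33 of 38, with a median log2 change of -1.57, but with wide differences between lines. Of the 38, 10 had an unadjusted p under 0.05 (4.92% over all genes) and 4 had groups that did not overlap, near the 7.27% over all genes. These 4 were Epcam, Afdn, Pkp1 and Krt14. The list's mean log2 CPM was 4.41, 6.20 and 5.29 in primary 5, 7 and 8 and 2.94, 2.97 and 4.67 in metastasis 5, 3 and 7, so metastasis 7 exceeded primary 5. Without metastasis 7 the groups of 24 genes on the lower and 2 on the higher side did not overlap and the median was -2.63. The 7.27% does not apply with a line left out, and no share over all genes was computed for those counts. Without primary 7 the median was -0.63. With the number as a fixed block 18 genes had an unadjusted p under 0.05. Over all genes such a fit gave 1334 in 6 and 1460 in 9 libraries, in either direction. Epcam, an epithelial adhesion molecule, was at 56.3, 204 and 134 CPM against 21.9, 30 and 47 CPM (log2 change -1.99, SE 0.56). Cdh1, E-cadherin of adherens junctions, was at 107, 627 and 419 CPM against 88.7, 77.3 and 391 CPM, with metastasis 7 among the primary values. Krt7 was at 206, 1177 and 957 CPM against 73.8, 242 and 115 CPM (-2.44, SE 0.64). The keratin genes Krt18 and Krt8 did not separate the groups. Krt18 was at 1209, 1077 and 1063 CPM against 1157, 1322 and 303 CPM, and Krt8 at 471, 147 and 626 CPM against 114, 1232 and 318 CPM. The CTC lines (3.25, 3.21 and 4.32) lay near the metastasis lines and the parental line (5.86) among the primary lines.

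Mesenchymal genes gave no opposite trend of that size. Of 25 tested, 16 were higher and 9 lower, with a median of 0.26 that became 0.04 without metastasis 3, 0.74 without primary 7 and -0.11 with the number as a fixed block. Vim, the intermediate filament of mesenchymal cells, was at 3722, 2117 and 955 CPM in primary and at 2015, 3439 and 584 CPM in metastasis lines. Fn1, fibronectin, was at 3300, 4160 and 4160 CPM against 6753, 3991 and 3217 CPM. Both overlapped.

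**Figure D3:**
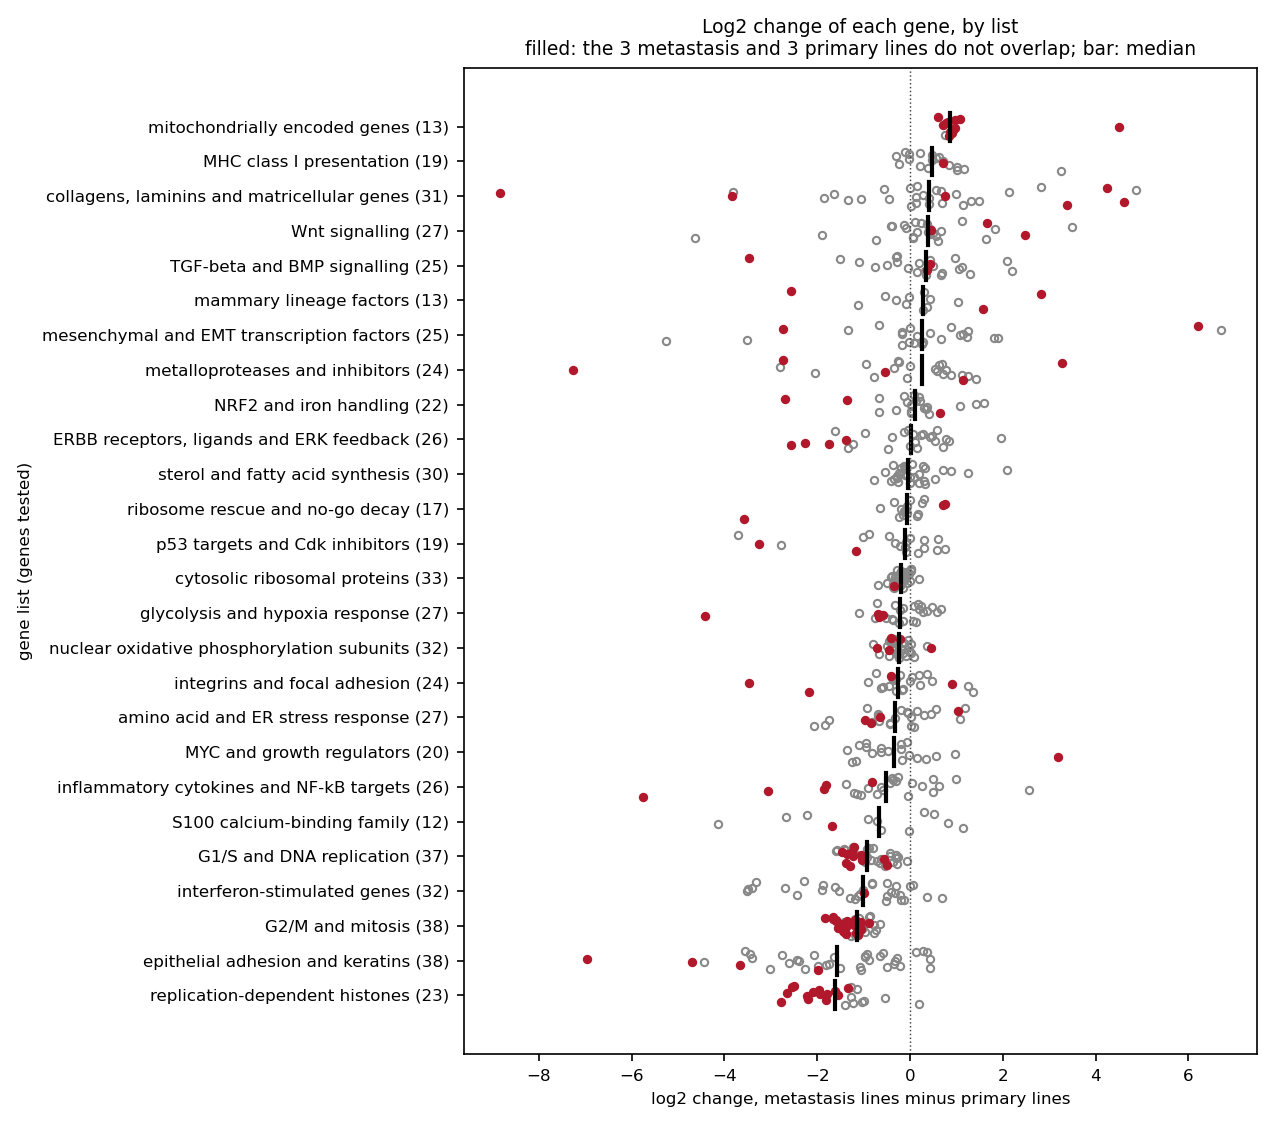
Log2 change between metastasis and primary lines for each tested gene of 26 lists, 1 point per gene, filled where the 3 metastasis and the 3 primary lines do not overlap, with a bar at the list's median. G2/M (median -1.14), histone (-1.61) and epithelial (-1.57) genes lie to the left and mitochondrially encoded genes (0.86) to the right, and most other lists straddle 0.

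Among matrix genes 21 of 31 were higher, with a median of 0.40 that became 0.04 without metastasis 5, 0.16 without primary 8 and 0.07 with the number as a fixed block. Single genes had large differences in either direction. Postn, periostin of fibrous matrix, was at 8.59, 11.2 and 19.4 CPM in primary and at 0, 0 and 0.0818 CPM in metastasis lines. Its log2 change of -8.84 (SE 1.37) rests on near-zero counts and moves with the prior count, and its adjusted p was 0.36 in edgeR. The CTC lines were at 0 to 0.0915 CPM and the parental line at 36.6 CPM, so Postn was present in the parental and primary lines and near 0 in the others. Postn is also a fibroblast marker. Of 11 tested fibroblast markers, 8 were higher and 3, Postn included, lower in metastasis lines. Their median was 1.15 (-0.10 to 2.86 as each line was left out), and 5 of 13 markers stayed under 1 CPM in all 6 lines. Whether fibroblast RNA has a part in the Postn difference was not tested. Pdgfra, a growth factor receptor, was at 58.1, 4.84 and 4.05 CPM against 269, 126 and 11.3 CPM, and Col3a1 stayed at or below 0.325 CPM. The 13 fibroblast markers summed to 238 to 403 CPM in primary and 77.4 to 435 CPM in metastasis lines. Spp1, osteopontin, was at 2989, 305 and 708 CPM against 9545, 7322 and 808 CPM, which overlap. Tnc, tenascin C, was at 1.14, 23.1 and 19.1 CPM against 0.299, 1.57 and 1.2 CPM.

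Integrins and focal adhesion genes were lower in 15 of 24, with a median of -0.26 (-0.05 without metastasis 7 and -0.41 without metastasis 5). Itga2, the collagen receptor subunit, was at 54.2, 129 and 113 CPM in primary and at 25.3, 21 and 19.3 CPM in metastasis lines (log2 change -2.18, SE 0.63). Itgb6, an epithelial integrin that frees TGF-beta, was at 0.627, 8.09 and 2.1 CPM against 0.312, 0.118 and 0.545 CPM (-3.47, SE 1.02). Itgb1, the shared beta subunit, was at 1254, 1367 and 1459 CPM against 1498, 984 and 495 CPM, which overlap. Metalloproteases and their inhibitors divided evenly, 12 higher and 12 lower.

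In the ERBB family, whose human member HER2 was added to these cells, 13 of 26 genes of receptors, ligands and ERK feedback were lower, with a median of 0.03 (-0.21 to 0.25 as each line was left out). The groups of 4 genes did not overlap on the lower side (7.27% over all genes): Areg (log2 change -2.57), Nrg1 (-2.27), Btc (-1.75, SE 0.49) and Dusp5. Areg, Nrg1 and Btc are ligands, while the ligands Tgfa (-0.01), Egf (0.70), Nrg2 (0.10), Nrg4 (0.83) and Hbegf (-1.22) overlapped. Btc, betacellulin, was at 1.7, 4.21 and 2.91 CPM against 0.612, 1.02 and 0.982 CPM. Dusp5, a phosphatase induced by ERK, was at 26.1, 57 and 61.3 CPM against 16.5, 20.1 and 19.2 CPM (-1.37, SE 0.34). These ligands were picked from the list after their values were seen. Errfi1, a feedback inhibitor of these receptors, was at 183, 247 and 291 CPM against 226, 356 and 114 CPM, with no separation.

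Wnt genes were higher in 20 of 27, with a median of 0.39 (0.21 without primary 8) and 3 genes whose groups did not overlap on the higher side, near the 6.38% over all genes. Wnt10b, a ligand, was at 4.24, 4.76 and 2.06 CPM in primary and at 25.7, 28.1 and 7.62 CPM in metastasis lines (log2 change 2.47, SE 0.68). Porcn, the enzyme that acylates Wnt ligands, was at 4.03, 3.78 and 3.68 CPM against 20.9, 9.81 and 5.36 CPM (1.65, SE 0.51). TGF-beta and BMP genes were higher in 16 of 25, with a median of 0.34 (0.10 without metastasis 5). Fst, follistatin, which binds activin, was at 0.613, 4.42 and 5.28 CPM against 0.286, 0.367 and 0.273 CPM (-3.47, SE 0.97). Id2, a BMP target, was at 39.1, 13.7 and 11.9 CPM against 74.5, 181 and 17.5 CPM (2.08, SE 0.92), with metastasis 7 below primary 5. Trp63, the basal-lineage factor p63, was at 0.795, 0.303 and 0.11 CPM against 6.47, 0.943 and 1.17 CPM.

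Innate immune lists depended on single lines. Interferon-stimulated genes were lower in 29 of 32, with a median of -1.01. Of these, 6 had an unadjusted p under 0.05 (4.92% over all genes) and 1 had groups that did not overlap (7.27% over all genes). Primary 7 was high (list mean log2 CPM 4.50, against 2.31 and 2.44 in primary 5 and 8 and 1.81 to 2.69 in metastasis lines). Without primary 7 the median was 0.15. Mx2, of the antiviral Mx GTPase family but annotated as a polymorphic pseudogene, was at 0.223, 3.26 and 0.605 CPM against 0.0781, 0.301 and 0.245 CPM. MHC class I genes were higher in 14 of 19, with a median of 0.48 that became 0.08 without metastasis 5 and 0.20 without primary 8. In pair 7, 10 of 19 were lower (median -0.16). H2-D1, a class I heavy chain, was at 57.5, 28.7 and 55.6 CPM against 1255, 22.3 and 79.6 CPM in metastasis 5, 3 and 7, and without metastasis 5 its log2 change of 3.26 (SE 1.27) became 0.11. B2m, the light chain, was at 910, 881 and 631 CPM against 2083, 948 and 953 CPM (0.72, SE 0.33). Inflammatory cytokines and NF-kB targets were lower in 19 of 26, with a median of -0.52 (-0.25 without primary 8 and -0.80 without primary 5). Cxcl16, a chemokine, was at 30.6, 106 and 189 CPM against 11.3, 4.32 and 23.8 CPM (-3.05, SE 0.99), and Il1a, interleukin-1 alpha, at 0.558, 9.69 and 3.11 CPM against 0.0651, 0 and 0.177 CPM. Immediate early and heat shock genes, which respond to handling, were lower in 13 of 15, with a median of -0.20 (-0.57 without primary 5) and no gene whose groups did not overlap.

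Glycolysis and hypoxia genes had a median of -0.21 over 27, with 16 lower (median -0.35 without metastasis 3 and -0.09 without primary 8). The groups of 4 of the 27 did not overlap on the lower side, against 7.27% over all genes, and these were Pkm, Eno1, Gapdh and Pgk1. Pkm, pyruvate kinase, was at 2415, 3431 and 2841 CPM in primary and at 1477, 1855 and 2056 CPM in metastasis lines (log2 change -0.69, SE 0.21). Eno1, enolase, was at 1577, 2373 and 1461 CPM against 1193, 1334 and 1085 CPM (-0.58, SE 0.24). Gapdh had a log2 change of -0.66. Pgk1 was at 492, 47.2 and 23 CPM against 3.98, 15.9 and 6.35 CPM (-4.42, SE 1.42), and without primary 5 this became -2.00. Pgk1 shares 54.7% of its 31-base words with other genes, chiefly Pgk1-rs7, and Pkm shares 34.7% and Eno1 28.5%, so their levels carry that uncertainty. Tfrc, the transferrin receptor for iron uptake, was at 125, 347 and 130 CPM against 51.2, 62.2 and 121 CPM (-1.36, SE 0.48). Tfrc and the ferroportin gene were lower, while the ferritin genes Fth1 (log2 change 0.21, SE 0.37) and Ftl1 (0.13, SE 0.29) overlapped between the groups. Ftl1 shares 57.7% of its 31-base words with other genes, chiefly Ftl1-ps1. Of the 22 tested genes of NRF2 and iron handling, 15 were higher and 7 lower, with a median of 0.11 (0.02 to 0.28 as each line was left out). Tfrc and the ferroportin gene had the smallest p of that list.

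A metastasis and a primary line share the number 5, and another pair shares the number 7, which allowed differences within a number to be read beside the group difference. G2/M genes were lower in 38 of 38 in pair 5 and in 38 of 38 in pair 7, against 49% and 48.9% of all genes, with median differences of -2.18 and -1.74. G1/S genes were lower in 37 of 37 in both pairs (medians -1.74 and -1.08). Epithelial genes were lower in 31 and 32 of 38, and mitochondrially encoded genes were lower in 0 and 1 of 13. Other lists differed between the pairs. Sterol and fatty acid synthesis genes were lower in 1 of 30 in pair 5 and in 28 of 30 in pair 7, with medians of 0.96 and -1.35. Insig1, a feedback regulator of sterol synthesis, was at 83.1 CPM in primary 5 and 528 CPM in metastasis 5, and at 129 CPM in primary 7 and 27.3 CPM in metastasis 7. Fdps, an enzyme of the pathway, went from 58.1 to 110 CPM in pair 5 and from 286 to 50.8 CPM in pair 7. Integrin genes (medians 0.25 and -0.96) and matrix genes (0.72 and -0.45) also had opposite signs. Each pair is 1 line against 1, so these differences have no replicate check, and the meaning of a shared number is not in the labels.

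**Figure D4:**
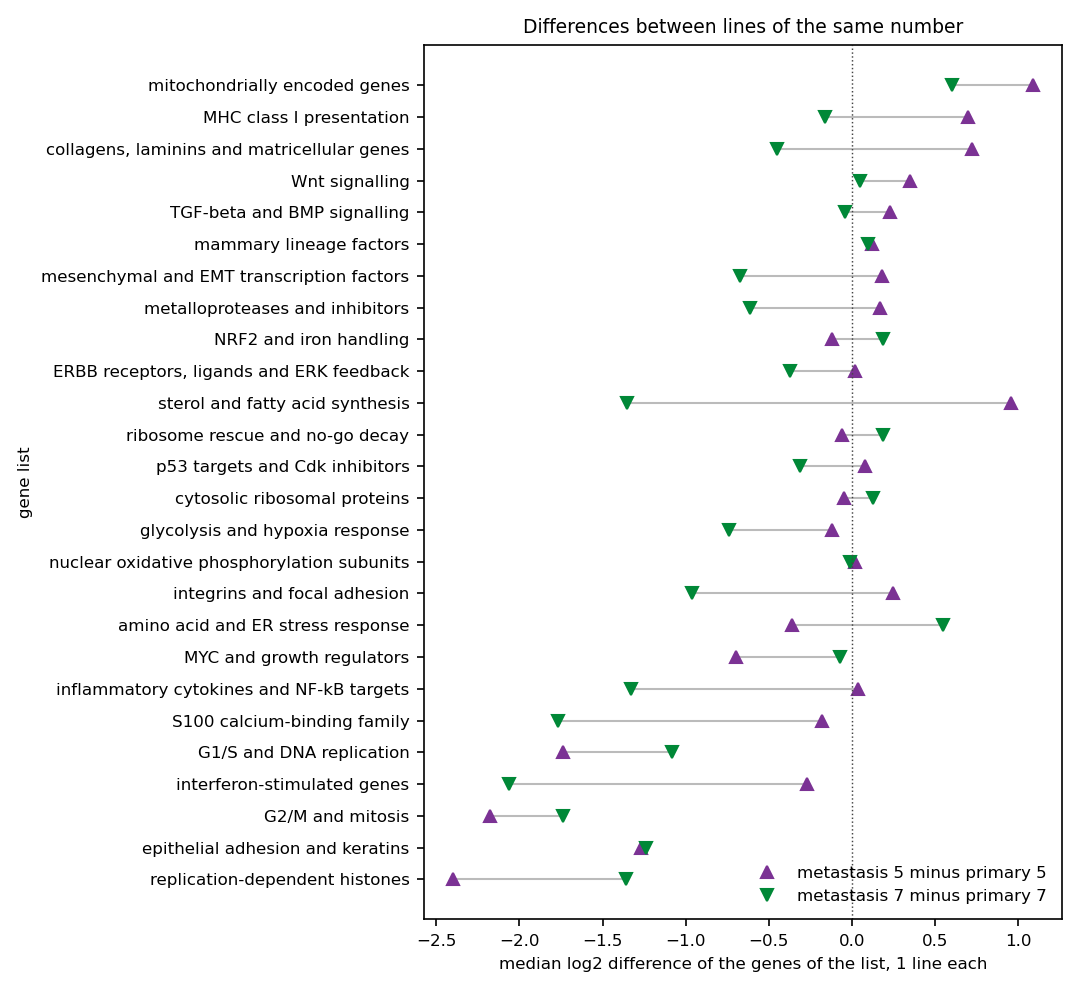
Median log2 difference of the genes of 26 lists between the metastasis and the primary line of number 5 (upward triangles) and of number 7 (downward triangles). Both pairs lie below 0 for G2/M (-2.18 and -1.74) and above 0 for mitochondrially encoded genes (1.09 and 0.60), whereas sterol synthesis lies at 0.96 in pair 5 and -1.35 in pair 7.

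At the level of transcripts, 0 of 61244 tested (0%) passed the same edgeR test, and 4237 (6.92%) had an unadjusted p under 0.05. Some leading transcripts belonged to genes whose total differed little. Ints6l-201, a coding transcript of an Integrator-related gene, was at 6.1, 3.38 and 4.36 CPM in primary lines and at 0 in all 3 metastasis lines. Set against 3 counts in a metastasis library (at most 0.0383 CPM), the lowest primary line was at least 88.2-fold higher. The gene as a whole was at 11.2, 5.42 and 6.19 CPM against 6.44, 12.1 and 5.92 CPM, a log2 change of 0.10 (SE 0.41) that ranged from -0.30 to 0.49 as each line was left out. Ints6l-206, another coding transcript of it, was at 0.495, 0.646 and 0.356 CPM against 1.29, 2.07 and 2.34 CPM. Tcf25-201, from a gene of ribosome quality control, was at 1.16, 0.62 and 0.772 CPM against 23.2, 12.4 and 20.6 CPM (log2 change 4.46, SE 0.61), while the gene's log2 change was 0.30 (SE 0.30; 0.02 without metastasis 5). Tcf12-220, annotated for nonsense-mediated decay, was at 0.255, 0.264 and 0.267 CPM against 13.4, 26.7 and 5.55 CPM. These transcripts were taken by their p, and reads are shared among transcripts by estimation, so a 0 can mean that reads were given to another transcript.

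**Figure D5:**
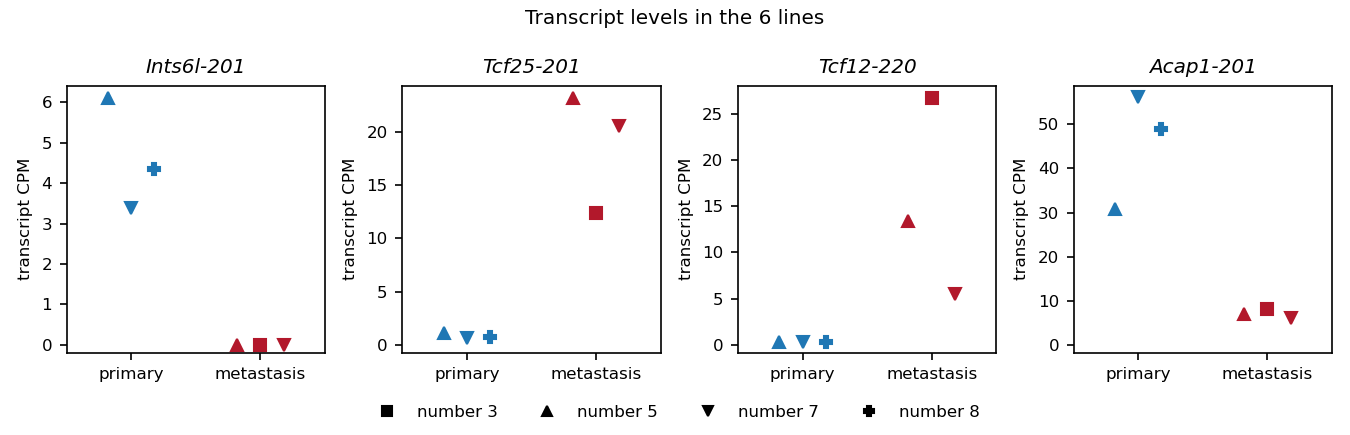
Transcript CPM in the 3 primary and 3 metastasis lines, 1 point per line, with shapes for the number. Ints6l-201 is at 0 in all metastasis lines and at 3.38 to 6.1 CPM in primary lines, Tcf25-201 and Tcf12-220 are higher in all metastasis lines, and Acap1-201 is lower (6.16 to 8.13 CPM against 30.8 to 56.2 CPM).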

How the data were processed

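RNA sequencing of 10 lines was analysed, with 85158193 to 97722716 counts in the 6 libraries compared. Per the labels' protocols, libraries came from a TruSeq total RNA kit and were read as paired ends on a HiSeq, while the molecule is labelled as poly-A RNA. Estimated counts, unscaled, were deposited by the authors for genes and for transcripts. The submitters' processing notes name GRCm38, StringTie 2.0.3, DESeq2 1.26.0 and HISAT2 2.1.0. The annotation release and the use of strand are not given in the sources used here. Positions come from GENCODE M21 and promoters from RefSeq (GRCm38.p6).

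Of 72544 gene entries, 55418 carry a name and were used, and 17126 assembled ones were left out, so a low named gene can have had its reads counted there. Counts were tested with edgeR 4.0.16 in R 4.3.3 (quasi-likelihood test, TMM factors, filterByExpr, 4 groups, all 10 libraries, Benjamini-Hochberg at 0.05), after a check on simulated data. The simulated data had a smaller spread between lines than these data, whose common biological coefficient of variation was 0.606. That check therefore does not show which changes the test can find here. SE is the size of the log2 change over the root of the F statistic. List levels are means of log2 CPM with a prior count of 2. A transcript entry filled in 1 column only was left out.

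The members and gene lists were chosen with earlier results of these data known. Named genes are those with a mean log2 CPM of at least 1 and no predicted, clone or pseudogene symbol: the 12 smallest p in each direction among genes whose groups do not overlap, the 5 largest changes in each direction at an unadjusted p under 0.05, per list the 2 highest and the 2 smallest p, and fixed names. The minimum and the symbol rule were meant for all of these but were not applied within lists, which departs from the rule and lets in low genes such as histones. Plk1, Ints6l, Tcf25, Tcf12, Areg, Nrg1, Gapdh, Pkp1, Krt14, Col3a1, Mxd1, Mxd3, Mxi1, Mnt, Napsa, Ager, Pdgfra, mt-Tt, mt-Te, Tgfa, Egf, Nrg2, Nrg4 and Hbegf were among those added after their values were seen. Some genes that the rule names are not reported here.

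The numbers in the titles were checked by correlating deviations from group means over genes: the 3 same-number pairs gave 0.319, 0.12 and 0.406, against a median of -0.0493 for other pairs. CTC 6 with metastasis 7 (0.506) and CTC 6 with primary 8 (0.43) were higher than each of them. Metastasis 7 gave 0.274 with primary 8 and 0.12 with primary 7, so pair 7 did not stand out by these values. The numbers were treated as pairing in the alternatives with a block, on the values alone. With a fixed block, in 6 or in 9 libraries, the difference between metastasis and primary lines comes from the numbers 5 and 7 alone. Alternatives were other scalings, filters and line subsets, DESeq2 1.42.0, limma-voom (limma 3.58.1), blocks and leaving out each line.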

Additional observations from a re-analysis of the deposited data

How the results depend on the processing

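The count of genes passing at 0.05 was 0 in the main test and was 1 (Pelo) with a minimum mean log2 CPM of 1, 187 with DESeq2 (65 higher), and between 0 and 1 when each line was left out (Afdn without primary 5). With the number as a random replicate block in limma-voom it was 2 (Acap1 and Pelo). A fixed block for the pairing gave 0 in 6 and in 9 libraries, and the pairing changed no other call. The count at an unadjusted p under 0.05, 1652 in the main test, was 994 with the minimum mean, 2879 with library weights in limma-voom, 3109 with the random block, and 853 to 2900 over the lines left out; 1334 and 1460 with the fixed block stayed within 1.5 times. Of these genes 40.7% were higher in the main test, 53.4% without primary 5. Genes whose groups do not overlap were 688 higher and 881 lower with the minimum mean, which leaves fewer genes. For transcripts limma-voom gave 3 and every other setting 0. Of 1929 values of 97 genes, 1851 kept their direction and side of the threshold; 48 passed where the main test did not, 44 of them with DESeq2. A sign turned in 30 values of 13 genes, all with overlapping groups: Krt18 was at 0.15 and Vim at 0.27 without metastasis 7, Vim at 0.39 without primary 5 and 0.07 with library weights, Krt8 at -0.46 with either fixed block, -0.24 with the random block and -0.94 without metastasis 3, Fn1 at -0.10 without metastasis 5, Erbb2 at -0.03 without primary 8 and Fdps at 0.12 without primary 7. With library weights Abce1 was at -0.02, Errfi1 at 0.09 and Ftl1 at -0.08, and Errfi1 was at 0.02 with library totals. Over the lines left out Abce1 ran from -0.36 to 0.42, Errfi1 from -0.50 to 0.28, Fth1 from -0.01 to 0.60, Ftl1 from -0.18 to 0.34, Ints6l from -0.30 to 0.49, Hist1h1c from -0.33 to 0.61 and Hist1h2bc from -1.18 to 0.01. With the number as a block Ints6l was at -0.32 and -0.33 (fixed) and -0.04 (random). The other ends of the ranges over lines left out were -0.61 for Krt18, 0.90 for Krt8, -0.80 for Vim, 0.47 for Fn1, 0.26 for Erbb2 and -1.15 for Fdps. Where a line was left out the cause was not tested. No scaling moved the median log2 change of all genes past 0.06. Low counts limit the histone, Postn and mt-Nd6 values.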
